A study of Mus musculus with 6 samples.

Results

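Untreated stem-like Lewis cells were described from their 3 RNA sequencing libraries, labelled Control replicates 1 to 3, out of 6 libraries in the series. The other 3 came from cells given RT-MPs (the labels give no long form) and were not used here. Lewis cells are a mouse lung carcinoma line that arose in the lung of a C57BL mouse. All 3 Control libraries carry the genotype label WT, and the time label is 48 h. Per the labels' protocols, cells were kept in DMEM with 2% fetal bovine serum at 37C in 5% CO2. How the stem-like state was obtained, and whether the replicates came from separate cultures, is not given in the sources used here, so the spread reported below may be technical. One cell line limits how far any level can be read to lung tumours in general.

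A carcinoma is a tumour of epithelial origin. Epithelial cells hold together through E-cadherin, tight junctions and keratin filaments, whereas mesenchymal cells are single, motile and rich in vimentin and matrix. Tumour lines in culture often lie between these states, and the ligands they secrete act on tumour cells themselves or on the fibroblasts, vessels and leukocytes around them, depending on which cells carry the receptor. Stem-like tumour cells are often recognised by surface proteins such as CD44 and by dye and aldehyde handling.

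Each library holds for 54446 genes an FPKM value, which counts fragments per kilobase and divides by the read total. From the steps between low values, read totals came to 20715410, 18797858 and 19305402. In a gene of 2 kb, 100 reads correspond to 2.41 to 2.66 FPKM and 3 reads to 0.0724 to 0.0798 FPKM. Pairs of libraries had a Pearson correlation of 0.991 to 0.992 across the 11983 genes with a mean of at least 1 FPKM, on log2(FPKM + 1). This is a correlation across genes, which are not replicates. The libraries nevertheless differed beyond sampling noise, with a chi-square of 2.28 to 3.16 per degree of freedom, so no library was a deposited copy of another, but whether they are technical repeats of 1 culture cannot be told from this. A gene is called expressed below where its mean over the 3 libraries was at least 1 FPKM, and levels are FPKM unless another scale is named.

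Of the 54446 genes, 11983 were expressed, 4995 reached 10 FPKM, 375 reached 100 FPKM and 27 reached 1000 FPKM. A further 31275 genes, 57.4%, were listed at 0 in all 3 libraries. Among the 21918 protein-coding genes, 10338 (47.2%) were expressed and 6838 (31.2%) were at 0 throughout. Counts of expressed genes in the lists below are to be read against this 47.2%. The transcriptome was concentrated: 50 genes held 25% of the summed FPKM, 388 held 50% and 5287 held 90%.

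The most abundant transcripts were those of translation, mitochondrial respiration, iron storage and, among secreted proteins, osteopontin. The mitochondrial transcript mt-Co1, a cytochrome oxidase subunit, had 9022, 9029 and 9308 FPKM (9119.9 ± 163, SD, n = 3). The translation elongation factor gene Eef1a1 followed at 6119, 6161 and 5933 FPKM. Spp1, which encodes the secreted phosphoprotein osteopontin, was next at 4676, 4476 and 4543 FPKM (4565 ± 102, SD, n = 3). The ranges of these 3 genes did not overlap.

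Spp1 alone made up 1.47% to 1.55% of the summed FPKM. All 37 chemokine genes examined held 0.304% to 0.323% together, and the 48 matrix genes, with Spp1 among them, held 2.01% to 2.07%. Ribosomal protein genes, of which 79 of 82 were expressed, held 14.1% to 14.4% of the summed FPKM. Because these genes are short, their share of the reads was lower, 7.10% to 7.27%. Rplp1 at 1923 ± 68.7, Rps3a1 at 1896 ± 25.3 and Rplp0 at 1630 ± 11.7 FPKM led them (SD, n = 3), followed by Rpl4, Rpl23a, Rps4x, Rpl10, Rpl36, Rps15, Rpl13 and Rpl8 between 1444 and 1041 FPKM.

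Mitochondrially encoded genes held 4.96% to 5.34% of the summed FPKM, with mt-Cytb (cytochrome b) at 1854 ± 149, mt-Nd1 at 1330.4 ± 89.4 and mt-Nd5 at 1060.2 ± 58.8 FPKM (SD, n = 3), the last 2 being complex I subunits. The heavy chain of ferritin, Fth1, stood at 2781 ± 26.3 FPKM, and B2m, the light chain of MHC class I, at 2131 ± 15.2 FPKM. Eef2, the ribosome translocation factor, had 1672 ± 31.1, the glycolytic kinase gene Pgk1 had 1345 ± 59.9, Tpt1, a growth-related calcium-binding protein gene, had 1328 ± 23.0, and the chaperone gene Hsp90ab1 had 1239 ± 15.3 FPKM (SD, n = 3). These 25 most abundant entries also held 2 that are not ordinary messenger RNAs. Gm23935 is annotated as a microRNA gene with 57 bases and was listed at 3213, 3714 and 3620 FPKM, and Gm9794 is a processed pseudogene at 1293 ± 46.7 FPKM whose reads can come from its parent gene.

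Some well-known genes were listed at low levels. Gapdh, a usual reference gene of glycolysis, had 13.9, 14.2 and 10.9 FPKM, Rpl13a at 20.1 ± 0.363 FPKM and mt-Co2 at 48.8 ± 1.89 FPKM (SD, n = 3). Near-identical copies of these 3 genes elsewhere in the genome are known, and how reads shared with a copy were counted is not given in the sources used here. These levels are therefore uncertain, and the part of copies in them was not tested. Of other mitochondrial genes, mt-Nd4 had 391 FPKM, but mt-Atp6, mt-Co3 and mt-Nd3 had 43.4, 22.1 and 1.68 FPKM. The share of mitochondrially encoded genes given above is therefore uncertain too. Actb, the cytoplasmic actin gene, had 415.0, 416.8 and 416.7 FPKM.

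The 8 marker genes were chosen with earlier results of these data known. All 8 were expressed, which can follow from this choice. Cxcl1, a chemokine that attracts neutrophils, had 484, 464 and 467 FPKM in replicates 1, 2 and 3 (472 ± 10.5, SD, n = 3). Mmp13, a collagenase, had 290.3, 272 and 281 FPKM (281 ± 9.32, SD, n = 3). Cxcl1 was the highest of the 8, and its range lay above the Mmp13 range.

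Slc2a1, the glucose transporter GLUT1, had 232, 279 and 243 FPKM (251 ± 24.4, SD, n = 3). The transcription factor gene Myc had 235, 245 and 234.1 FPKM (238 ± 5.96, SD, n = 3). Vegfa, the main angiogenic growth factor, had 171, 200.3 and 177 FPKM (183 ± 15.4, SD, n = 3). The ranges of Mmp13 and Slc2a1 overlapped, as did those of Slc2a1 and Myc, so their order is not resolved, and Vegfa lay below all of them.

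The fibrillar collagen gene Col3a1 had 141, 145 and 144 FPKM (143 ± 2.34, SD, n = 3). Nos2, the inducible nitric oxide synthase, had 77.55, 95.7 and 84.0 FPKM (85.8 ± 9.20, SD, n = 3). Cd44, the hyaluronan and osteopontin receptor, had 57.4, 61.5 and 58.0 FPKM (59.0 ± 2.20, SD, n = 3). The last 3 did not overlap with each other or with the genes above them. Replicate 2 held the highest value in 6 of the 8 genes, all except Cxcl1 and Mmp13, against 32.3% of all expressed genes.

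Promoter sequences are shown so that abundance can be read beside the letters upstream of the start. The genes, 4 abundant ones and others listed at 0, were chosen after values were seen. The windows are the 250 bases before the start listed in RefSeq, on GRCm38.p6, written 5′ to 3′ on the gene's strand. Capitals mark matches on either strand to TATAAA (the TATA box, searched on the gene's strand only), TGACTCA (an AP-1 site), GGG and TTTCC with any 2 letters between them (an NF-kB site) and ACGTG (the core letters bound by hypoxia-inducible factors, which also lie inside the E-box CACGTG). The first 4 genes are the secreted products Spp1, Cxcl1 and Mmp13 and the membrane transporter Slc2a1, at chr5:104434861-104435110 (Spp1, the upstream one of 2 listed promoters), chr5:90890995-90891244 (Cxcl1), chr9:7272264-7272513 (Mmp13) and chr4:119108495-119108744 (Slc2a1), all on the plus strand. The other two were listed at 0 in every library and lie on the minus strand, at chr11:100206031-100206280 (the basal keratin gene Krt14) and chr4:89311033-89311282 (the cell cycle inhibitor gene Cdkn2b).
Spp1: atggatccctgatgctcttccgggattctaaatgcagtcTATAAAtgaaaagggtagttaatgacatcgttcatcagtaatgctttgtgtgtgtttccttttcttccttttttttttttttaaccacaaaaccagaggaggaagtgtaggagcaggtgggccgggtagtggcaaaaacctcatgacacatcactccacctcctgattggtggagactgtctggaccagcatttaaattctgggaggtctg
Cxcl1: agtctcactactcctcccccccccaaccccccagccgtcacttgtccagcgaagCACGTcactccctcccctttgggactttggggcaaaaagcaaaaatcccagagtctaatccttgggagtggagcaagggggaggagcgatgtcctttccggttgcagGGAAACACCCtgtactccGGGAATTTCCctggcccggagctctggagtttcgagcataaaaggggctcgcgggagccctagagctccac
Mmp13: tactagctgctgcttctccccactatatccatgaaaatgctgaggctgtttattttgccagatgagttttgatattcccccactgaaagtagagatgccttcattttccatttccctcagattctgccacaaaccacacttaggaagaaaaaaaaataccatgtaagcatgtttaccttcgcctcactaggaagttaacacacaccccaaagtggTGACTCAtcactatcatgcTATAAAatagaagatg
Slc2a1: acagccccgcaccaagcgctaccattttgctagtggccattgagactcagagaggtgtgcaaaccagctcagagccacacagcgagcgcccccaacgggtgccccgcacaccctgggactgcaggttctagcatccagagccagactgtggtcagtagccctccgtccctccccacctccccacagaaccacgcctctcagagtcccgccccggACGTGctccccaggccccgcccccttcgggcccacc
Krt14: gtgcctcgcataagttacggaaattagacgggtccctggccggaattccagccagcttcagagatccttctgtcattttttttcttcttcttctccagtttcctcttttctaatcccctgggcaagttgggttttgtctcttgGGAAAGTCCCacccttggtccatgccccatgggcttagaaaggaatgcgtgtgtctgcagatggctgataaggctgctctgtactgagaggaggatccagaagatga
Cdkn2b: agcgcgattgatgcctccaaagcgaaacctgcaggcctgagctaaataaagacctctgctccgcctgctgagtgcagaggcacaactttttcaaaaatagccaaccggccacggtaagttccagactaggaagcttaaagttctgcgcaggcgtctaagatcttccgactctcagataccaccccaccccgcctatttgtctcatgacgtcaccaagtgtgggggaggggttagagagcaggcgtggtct

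The Cxcl1 window held 2 matches to the NF-kB site and 1 to the hypoxia core. Mmp13 had 1 TATA box and 1 AP-1 site close to the start, and Slc2a1 had 1 hypoxia core. The upstream Spp1 window had 1 match to TATAAA, but near the far end of the window and not close to the start. The silent Krt14 window also held 1 NF-kB site. The Cdkn2b window held none of these letters, which says only that they are not in this window. Windows of 3 markers were searched but are not printed. Col3a1 had 1 match to TATAAA and Cd44 had 1 hypoxia core. For Vegfa, the upstream one of 2 listed promoters held none of the motifs and the other held 1 hypoxia core. The ratio of observed to expected CpG was 0.462 for Cxcl1, 0.515 for Slc2a1, 0.103 for Mmp13, 0.255 for Spp1, 0.325 for Krt14 and 0.67 for Cdkn2b.

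Across the 13802 protein-coding genes with 1 promoter in the RefSeq table, of 21879 with a unique symbol, CpG content was lower in silent than in expressed genes. Its median was 0.186 in the 4490 genes at 0 in all 3 libraries, 0.379 in the 2753 genes above 0 and below 1 FPKM, 0.749 in the 3536 from 1 to below 10 FPKM, 0.791 in the 2810 from 10 to below 100 FPKM and 0.743 in the 213 at 100 FPKM or more. A TATA box was found in 16.7% of silent genes, 3.22% of genes from 1 to below 10 FPKM and 8.45% of genes at 100 FPKM or more, against 8.75% of all. It was thus most frequent in the silent genes and least frequent at intermediate levels. In the same windows, the median share of G and C was 46% in silent genes and 60% from 1 to below 10 FPKM. At 100 FPKM or more it was 59.6%. TATAAA holds only A and T and was searched across the whole window, so its frequency can move with this share. The part of that in these differences was not tested.

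The hypoxia core was found in 11.3% of silent promoters, 14.7%, 20.9% and 25.2% at the next levels and 28.2% at 100 FPKM or more, against 17.5% of all. This motif holds a CpG of its own, so its share moves with CpG content, and the part of that in the gradient was not tested. AP-1 sites showed no such order: they were in 5.30% (238 genes) of silent promoters, 4.21%, 2.91% and 2.67% at the next levels and 7.98% (17 genes) at 100 FPKM or more, against 3.98% of all. NF-kB sites were in 1.14% (51 genes) of silent promoters, 1.38%, 1.33% and 1.32% at the next levels and 2.82% (6 genes) at 100 FPKM or more, against 1.30% of all. These shares are descriptions over genes, with no test.

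**Figure D1:**
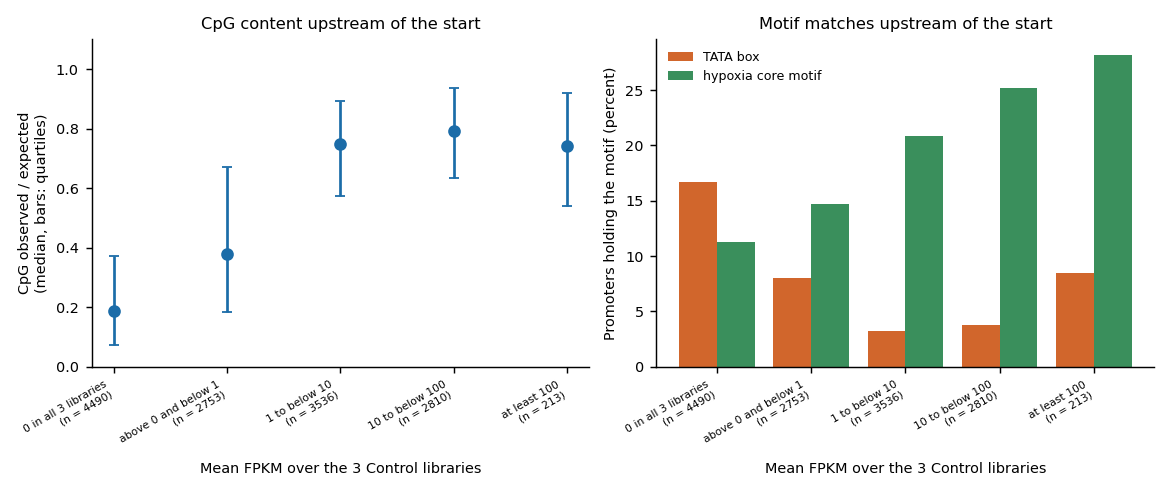
CpG content (left, observed over expected, median with bars from the lower to the upper quartile) and the percent of promoters holding a TATA box or the hypoxia core motif (right) in the 250 bases upstream of the start, for protein-coding genes grouped by mean FPKM over the 3 Control libraries. Median CpG content was 0.186 in genes at 0 and 0.749 to 0.791 between 1 and 100 FPKM, while TATA boxes were most frequent, at 16.7%, in genes at 0.

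By lineage markers, the cells carried a mesenchymal profile with 1 abundant simple keratin. Of 24 mesenchymal markers, 16 were expressed and 9 reached 10 FPKM, whereas 3 of 20 epithelial markers were expressed. Vim, the intermediate filament vimentin, had 927, 954 and 918 FPKM (933 ± 18.8, SD, n = 3). The matrix protein gene Fn1 (fibronectin) had 248.5, 269.6 and 260.5 FPKM. Col3a1, the mesenchymal homeobox gene Prrx1 (40.6 ± 0.182), the matrix gene Sparc (40.3 ± 0.376) and the proteoglycan gene Dcn (38.6 ± 0.349 FPKM; SD, n = 3) came next.

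Transcription factors that repress epithelial genes were all present. Twist1 had 28.9, 29.8 and 28.5 FPKM, Snai2 had 21.8, 17.8 and 20.2 FPKM, and Snai1, Twist2, Zeb1 and Zeb2 had means of 9.97, 9.75, 6.79 and 4.53 FPKM. The mesenchymal profile was incomplete. Col1a1 and Col1a2, the chains of type I collagen, had means of 0.0079 and 0.0052 FPKM against 143 FPKM for Col3a1. N-cadherin (Cdh2) and Thy1 were listed at 0, where 3 reads would be 0.0198 and 0.0533 FPKM, and the smooth muscle actin gene Acta2 had 0.0542, 0 and 0.262 FPKM.

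Among epithelial markers, the simple keratin gene Krt8 had 164, 166 and 174 FPKM (168 ± 5.60, SD, n = 3). Its filament partner Krt18 had only 7.05, 7.74 and 7.86 FPKM, and the membrane protease gene St14 had 1.35 ± 0.134 FPKM (SD, n = 3). No other of the 20 markers was expressed. E-cadherin (Cdh1) had 0.0211, 0.0116 and 0.0340 FPKM, which is at or under 3 reads (0.0349 FPKM). Epcam, Krt5, Krt14, Krt17, Cldn3, Cldn4, Esrp1 and Esrp2 were listed at 0 in all 3 libraries. Ranges of Krt8 and Krt18 were far apart, so filament genes that usually pair in simple epithelia were not at equal levels.

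Genes of differentiated lung epithelium were largely silent, although the line is labelled a lung carcinoma. Nkx2-1, the lineage transcription factor of lung, was listed at 0 in all 3 libraries, where 3 reads would be 0.0562 FPKM. The surfactant genes Sftpc and Sftpa1 and the club cell genes Scgb1a1, Scgb3a2 and Cyp2f2 were also at 0. Of 20 lung epithelial markers 6 were expressed, 3 of which are known from alveolar type 1 cells: Hopx (10.4 ± 0.989), Rtkn2 (7.56 ± 0.284) and Pdpn (3.94 ± 0.171 FPKM; SD, n = 3). Abca3, a lipid transporter of surfactant bodies, had 6.78 ± 0.480 FPKM, the aspartic protease gene Napsa 1.86 ± 0.0565 FPKM (SD, n = 3), and Foxa2 a mean of 1.21 FPKM. None of the 6 reached the level of Krt8, and Hopx was the only one at 10 FPKM or more.

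**Figure D2:**
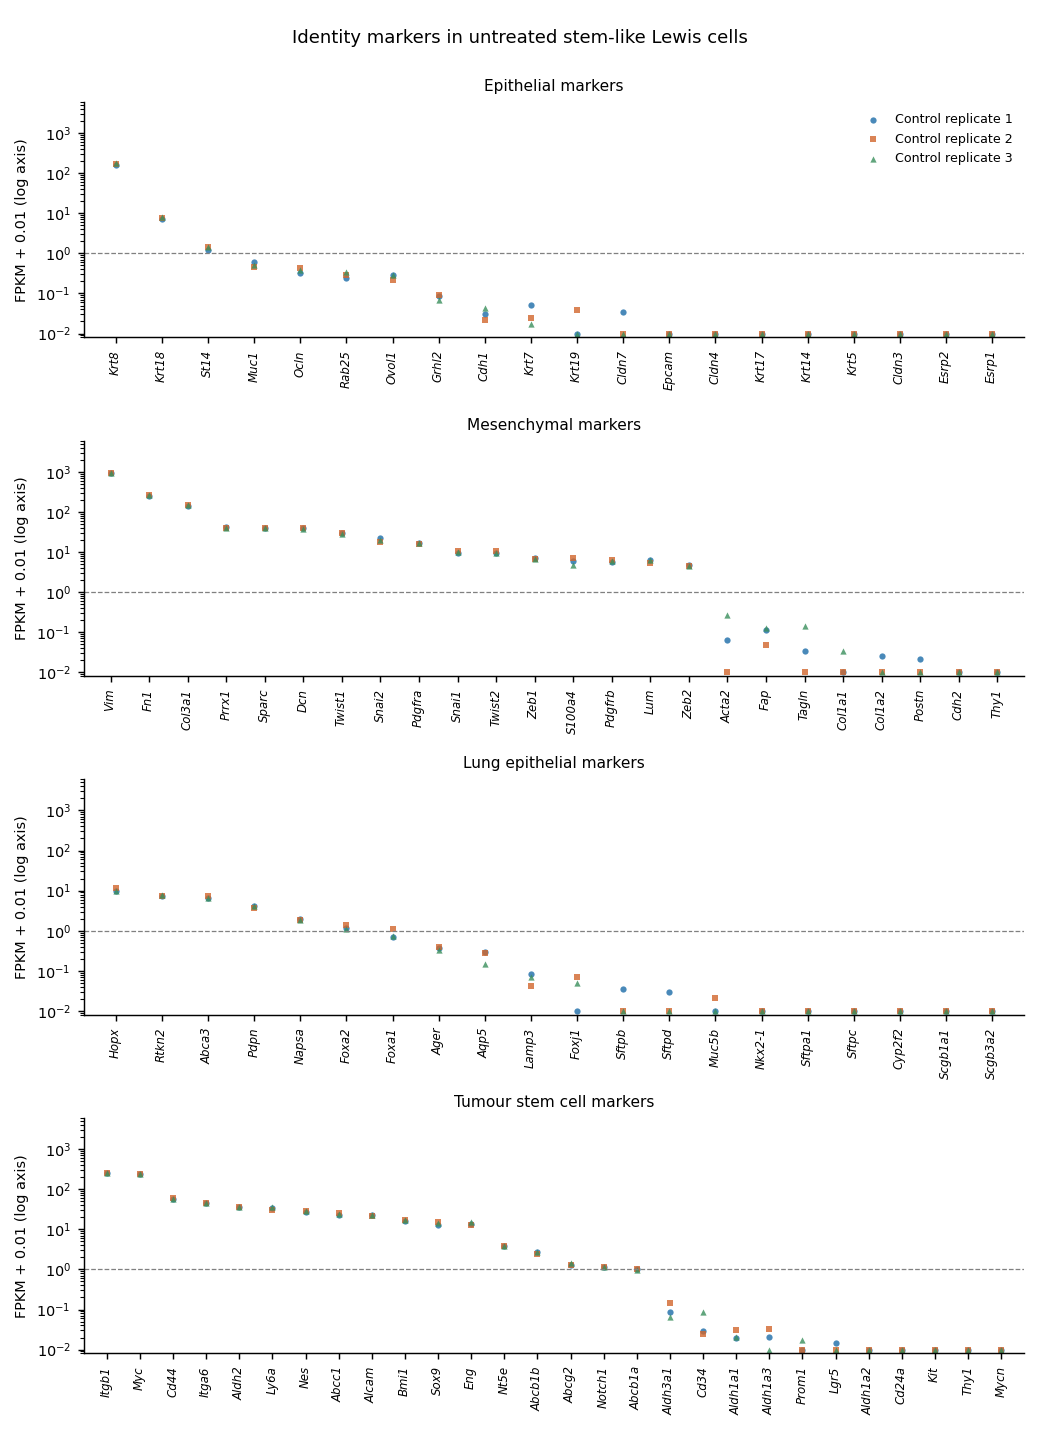
FPKM + 0.01 on log axes for each member of the epithelial, mesenchymal, lung epithelial and tumour stem cell marker lists, 1 symbol per Control replicate; the dashed line is at 1 FPKM and points at the bottom are genes listed at 0. Krt8 is the only epithelial marker above 10 FPKM, 9 mesenchymal markers are, and Nkx2-1, Sftpc and Scgb1a1 lie at 0.

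Most markers of cells that could be mixed into the culture were low or at 0, with a few above 10 FPKM. In bulk RNA, fewer cells of a type and less RNA per cell cannot be told apart. Of 20 haematopoietic markers 2 were expressed, Cd68 at 30.2 ± 2.41 and S100a8 at 29.9 ± 0.195 FPKM (SD, n = 3), the summed level of the list was 59.0 to 63.9 FPKM, and the pan-leukocyte gene Ptprc had 0, 0.0029 and 0 FPKM. Adgre1, Csf1r, Tyrobp, Cd3e, Cd4, Cd8a, Ms4a1, Nkg7, Ncr1 and S100a9 were at 0. The calprotectin subunit genes S100a8 and S100a9 thus differed, at 29.7, 29.97 and 30.1 FPKM for S100a8 and 0 for S100a9, where 3 reads would be 0.306 FPKM.

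Endothelial markers summed to 5.32 to 5.83 FPKM. Plvap, a diaphragm protein gene of fenestrated vessels, at 2.70 ± 0.213 and Egfl7, a secreted vessel factor gene, at 2.22 ± 0.106 FPKM (SD, n = 3) were expressed. The other 10 were not: Kdr, Tie1 and Flt1 had 0.177, 0.176 and 0.121 FPKM, Vwf, Cdh5 and Pecam1 had 0.0827, 0.0563 and 0.0433 FPKM, Tek and Erg had 0.0071 and 0.005 FPKM, and Emcn and Cldn5 were at 0. The vessel receptors and junction proteins that define these cells were thus at or near 0.

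The neuroendocrine list held 1 expressed gene of 10, the adhesion molecule gene Ncam1 at 12.3, 12.7 and 13.2 FPKM. Calca, Syp, Chgb, Dll3 and Insm1 were below 1 FPKM, and Chga, Neurod1 and Scg2 were at 0. Neural and glial markers showed the neuronal tubulin gene Tubb3 at 15.3 ± 0.353 and Map2, a microtubule-associated protein gene, at 1.31 ± 0.144 FPKM (SD, n = 3). Snap25, Gfap and Syt1 were below 1 FPKM, and Olig2, Rbfox3 and S100b were at 0. Of 7 melanocyte markers only the regulator Mitf was expressed, at 3.22, 2.37 and 2.96 FPKM; Pmel had 0.165 FPKM and Tyr, Tyrp1, Dct, Mlana and Sox10 were at 0.

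Muscle markers differed between libraries because of 1 gene. Ckm, the muscle creatine kinase, had 0, 0.0183 and 4.89 FPKM, so nearly all of it was in replicate 3, and the summed list was 6.95 FPKM there against 1.31 and 1.41 FPKM in replicates 1 and 2. Desmin (Des) had 1.05, 1.30 and 1.77 FPKM, the embryonic myosin gene Myh3 a mean of 0.180, Myh11 0.0182 and Myf6 0.0137 FPKM, and Myod1, Myog, Myf5, Pax7 and Actc1 were at 0. Erythroid markers were low or silent: Klf1 had 0.268 FPKM, Hbb-bs had 0.809 FPKM in replicate 3 and 0 in the others, and Hba-a1, Hba-a2, Hbb-bt and Alas2 were at 0.

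The stem-like label was set against 2 lists. Of 15 pluripotency factors, 2 were expressed, both Krüppel-like factors with roles in many tissues: Klf2 had 5.78, 6.51 and 5.97 FPKM and Klf4 had 2.99, 2.44 and 3.11 FPKM. The core factor genes Pou5f1 and Nanog were at 0 in all 3 libraries, where 3 reads would be 0.0710 and 0.0712 FPKM, and so were Lin28a, Dppa3, Dppa5a, Utf1 and Tdgf1. Sox2 had 0.0469, 0 and 0 FPKM. The core embryonic factors were thus at or under 3 reads in each library.

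Of 28 genes used as markers of tumour stem cells, 16 (57.1%) were expressed, against 47.2% of all protein-coding genes, and 12 reached 10 FPKM. The fibronectin and laminin receptor chain gene Itgb1 had 255, 257 and 255 FPKM, above Myc, and Cd44 followed. The laminin receptor chain gene Itga6 had 44.9, 46.4 and 45.3 FPKM, and Aldh2, a mitochondrial aldehyde dehydrogenase gene, had 35.9, 35.7 and 35.6 FPKM. Many of the 16 are expressed widely in cultured cells and do not by themselves mark a stem-like state.

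Other genes of this list were divided. The stem cell antigen gene Ly6a (Sca-1) had a mean of 33.4, the intermediate filament gene Nes 27.7, the activated leukocyte adhesion gene Alcam 22.1, the Polycomb gene Bmi1 17.0 and the transcription factor gene Sox9 14.3 FPKM. Prom1, which encodes CD133, had 0, 0 and 0.0072 FPKM, and Kit, Aldh1a2, Thy1 and Mycn were at 0. Cd24a was also listed at 0, which is uncertain because it has near-identical copies. Aldehyde dehydrogenases were uneven: against 35.7 FPKM for Aldh2, the isoform genes most often linked to stem cell assays, Aldh1a1, Aldh1a3 and Aldh3a1, were all below 1 FPKM.

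Genes of cell division were expressed throughout the list. All 22 proliferation genes were expressed, 19 of them at 10 FPKM or more. Cdk4, the kinase of early cell cycle entry, had 87.9, 91.7 and 87.3 FPKM, and its cyclin Ccnd1 had 67.0, 66.6 and 66.9 FPKM. Top2a, the topoisomerase of dividing cells, had 68.7, 63.9 and 63.2 FPKM, which overlapped with Ccnd1. The replication genes Pcna (54.1 ± 1.40) and Mcm3 (53.2 ± 0.992 FPKM; SD, n = 3) overlapped too, and the proliferation antigen gene Mki67 had a mean of 36.0 FPKM. The lowest of the list was Tyms, thymidylate synthase, with a mean of 2.81 FPKM.

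Of 22 oncogenes and tumour suppressors 17 were expressed. Myc, at 238 FPKM, stood above all others in the list, followed by Nfe2l2, the oxidative stress regulator NRF2, at 73.8, 72.8 and 74.5 FPKM. Cdkn1a, the p53-induced inhibitor p21, had 33.7, 40.7 and 36.8 FPKM, and Nras had 21.5 ± 0.355 FPKM (SD, n = 3). Trp53 had 15.8, 15.2 and 16.0 FPKM, and the receptor gene Egfr only 0.141, 0.0939 and 0.119 FPKM. The members at 0 were Mycn, Cdkn2a and Cdkn2b, the last 2 being neighbours on chromosome 4 that are described with the silent loci.

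Glycolysis genes were abundant and spread together. Of 22 glycolysis and lactate genes 20 were expressed, 18 reached 10 FPKM and 9 reached 100 FPKM. Pgk1 had 1321, 1413 and 1301 FPKM, the pyruvate kinase gene Pkm 908, 958 and 934 FPKM, and the aldolase gene Aldoa 812, 854 and 824 FPKM. Eno1 (enolase) at 593 ± 22.2 and Ldha (lactate dehydrogenase) at 445 ± 14.6 FPKM followed (SD, n = 3). Isoforms differed strongly: the transporter genes Slc2a1 and Slc2a3 stood at 251 and 0.3605 FPKM, and the aldolase genes Aldoa and Aldoc at 830.1 and 0.105 FPKM.

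Replicate 2 held the highest value in 17 of the 20 expressed glycolysis genes, and replicate 1 in none. Over all 11983 expressed genes, replicate 2 was highest in 32.3%. The split was not particular to glycolysis, and it was not found in every list. Replicate 2 was highest in 2 of 13 expressed chemokine genes, 4 of 22 proliferation genes and 3 of 17 oncogenes and tumour suppressors. It was highest in 9 of 10 expressed integrin genes, 8 of 13 cytokine genes and 15 of 29 growth factor genes. Vegfa, Adm and Nos2 were likewise highest there, at 200.3 FPKM for Vegfa against 171 and 177 FPKM in replicates 1 and 3, at 205 FPKM for Adm against 175 and 179 FPKM, and at 95.7 FPKM for Nos2 against 77.55 and 84.0 FPKM. The summed list was 5388, 5792 and 5451 FPKM. The 9 of 13 mitochondrially encoded protein-coding genes highest in replicate 3 gave a different split. This pattern was noticed after the values were seen, and whether culture, RNA handling or sequencing lies behind it was not tested.

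Within the chemokine list, the genes of neutrophil and monocyte attractants were the highest. Of 37 chemokine genes 13 were expressed, 8 of them at 10 FPKM or more. After Cxcl1, the monocyte attractant gene Ccl2 had 239, 219 and 222 FPKM (227 ± 10.7, SD, n = 3). The neutrophil attractant genes Cxcl2 (64.3, 64.7 and 65.7 FPKM) and Cxcl3 (56.4, 55.1 and 56.3 FPKM) came next without overlap. The membrane-anchored Cx3cl1 had a mean of 35.8 and the monocyte attractant gene Ccl7 of 35.6 FPKM, whose ranges overlapped.

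Other chemokines were lower or silent. The homeostatic Cxcl12 had a mean of 0.0063 FPKM, and the interferon-induced T cell attractant gene Cxcl10 had 6.06 FPKM. Cxcl15, Cxcl17, Ccl1, Ccl6, Ccl9, Ccl12, Ccl19, Ccl24, Ccl26 and Xcl1 were at 0 in all 3 libraries. Ccl20 (18.3 ± 2.23) and Ccl5 (15.3 ± 0.612 FPKM; SD, n = 3), which attract dendritic cells and T cells, overlapped. The products of the top 4 chemokine genes thus attract neutrophils or monocytes.

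Of 46 cytokine genes 13 were expressed, and only Mif, the macrophage migration inhibitory factor, was above 100 FPKM, at 355, 359.7 and 357 FPKM. Csf1, the macrophage growth factor, had 48.4, 42.4 and 44.2 FPKM. Its receptor's other ligand, Il34, had 12.3, 12.9 and 12.7 FPKM. Lif, of the interleukin-6 family, had 14.04 ± 1.21 and Csf2, the granulocyte-macrophage factor, 9.69 ± 0.568 FPKM (SD, n = 3), while Il6 itself stood just under the limit for expression, at 0.815, 0.942 and 1.13 FPKM.

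Among the 46 cytokine genes, 13 were silent. Il3, Il4, Il5, Il9, Il12a, Il13, Il17a, Il21, Il22, Tnfsf11, Fasl and Ifng were at 0 in all 3 libraries. Tnf was at 0 as well, where 3 reads would be 0.0974 FPKM. Type I interferon alpha genes, a family counted after values were seen, had 12 of 13 members at 0 and none expressed.

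Of 59 growth factor genes 29 (49.2%) were expressed, near the 47.2% of all protein-coding genes. Of them 13 reached 10 FPKM and 3 reached 100 FPKM. The 3 were Grn (progranulin) at 200.1, 199.9 and 196 FPKM, the vasodilator peptide gene Adm (adrenomedullin) at 175, 205 and 179 FPKM, and Vegfa. Their ranges overlapped, so their order is not resolved. The EGF receptor ligand gene Areg followed at 60.7, 69.1 and 62.6 FPKM, and Grem1, a secreted BMP antagonist, at 35.2, 32.1 and 34.9 FPKM.

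The matricellular genes Ccn1 and Ccn2, which are usually transcribed together, differed: Ccn1, listed under its older symbol Cyr61, had 19.7, 21.9 and 19.01 FPKM, while Ccn2, listed as Ctgf, was at 0, where 3 reads would be 0.0558 FPKM. Nrg1, Igf1, Igf2, Pdgfd, Bmp2, Bmp7, Inhbb, Wnt3a, Shh, Dkk1 and Edn1 were also at 0. Of the transforming growth factors, Tgfb1 had 13.3 and Tgfb3 6.89 FPKM, and Tgfb2 had 0.293 FPKM. Insulin-like growth factors were therefore absent from the list at this depth, and the VEGF family was present with Vegfa, Vegfb (28.4 FPKM), Pgf (18.5 FPKM), Vegfc (2.94 FPKM) and Vegfd (1.67 FPKM).

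Matrix genes were led by Spp1 and then, more than 10 times lower, by Fn1, Thbs2, Col3a1, Nid1 and Hspg2. Of 48 genes 28 were expressed and 6 reached 100 FPKM. Thbs2, an antiangiogenic thrombospondin gene, had 191, 194 and 197 FPKM. Nid1 (nidogen, 119 ± 2.97), Hspg2 (perlecan, 107 ± 5.64) and the collagen IV genes Col4a1 (94.0 ± 2.15) and Col4a2 (77.1 ± 1.505 FPKM; SD, n = 3) are basement membrane components. The laminin chain genes Lamc1, Lamb1 and Lama5 had 83.5, 70.7 and 47.3 FPKM, and Lama1, Nid2 and Fbln1 were at 0. Of the fibrillar collagens other than Col3a1, Col5a1 had 42.9, Col5a3 41.8 and Col5a2 2.87 FPKM. The basement membrane genes Col18a1, Lamb2 and Lama3 had 39.1, 12.5 and 3.22 FPKM, so genes of both kinds spanned a wide range.

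Proteases and their inhibitors had the highest share of expressed genes among the secreted lists, 29 of 36, and 9 reached 100 FPKM. Ctsl, a lysosomal cysteine protease gene, had 476, 475 and 469.7 FPKM, the same range as Cxcl1. Mmp13 came next, and its fellow matrix metalloproteinase genes Mmp3 (stromelysin) and Mmp10 had 235, 233.9 and 245 FPKM and 77.6, 78.6 and 79.4 FPKM. The cathepsin inhibitor gene Cst3 had 248.5 ± 4.83, Ctsz, a carboxypeptidase gene, 189 ± 5.08, and the urokinase gene Plau 146 ± 7.39 FPKM (SD, n = 3). The ranges of Cst3 and Mmp3 overlapped.

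The gelatinase genes were low, with Mmp9 at 7.35 and Mmp2 at 1.57 FPKM. Of the inhibitors of metalloproteinases, Timp2 had 99.7 and Timp1 33.6 FPKM, and Timp4 was at 0. Mmp7, Mmp8 and Serpine2 were at 0 as well. Mmp13, Mmp3 and Mmp10 therefore stood above both gelatinase genes, the collagenase gene Mmp1a had only 1.28 FPKM, and Timp2 stood above Timp1.

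**Figure D3:**
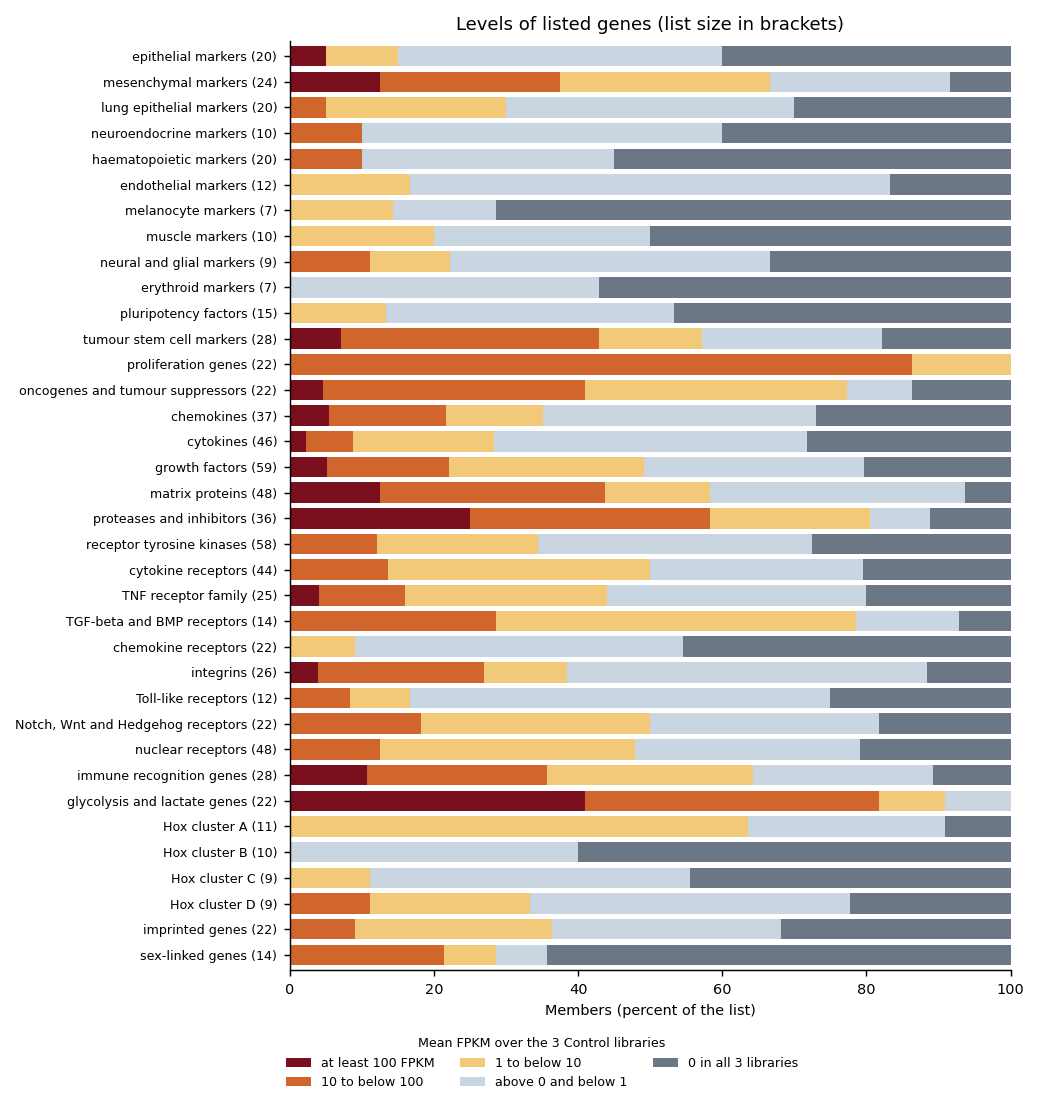
Percent of the members of each gene list at 5 levels of mean FPKM over the 3 Control libraries, with list sizes in brackets. All 22 proliferation genes and 20 of 22 glycolysis and lactate genes were expressed at 1 FPKM or more, against 2 of 22 chemokine receptor genes and none of the 10 Hox cluster B genes.

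Receptors of growth factors were at moderate levels. Of 58 receptor tyrosine kinase genes 20 were expressed and none reached 100 FPKM. Fgfr1, a fibroblast growth factor receptor gene, had 65.1, 64.3 and 66.9 FPKM, and Axl, the receptor of GAS6, had 63.4, 61.5 and 63.4 FPKM. The collagen receptor gene Ddr2 had 37.8 ± 0.937, the ephrin receptor gene Epha2 33.4 ± 0.657 and the Wnt-binding Ryk 23.1 ± 0.176 FPKM (SD, n = 3). None of these 5 ranges overlapped with its neighbour in the order.

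Of the receptors often linked to lung cancer, Met had a mean of 5.92, Erbb2 of 4.77, Erbb3 of 4.56 and Egfr of 0.118 FPKM, and Ret and Ros1 were at 0. Csf1r, Kit, Fgfr2, Ntrk2, Ror2, Musk, Erbb4, Epha3, Epha4, Epha6, Epha7, Ephb1, Ephb2 and Ephb6 were at 0 too. Fibroblast growth factor receptors were therefore carried by Fgfr1 and not Fgfr2.

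Cytokine receptors were led by Il13ra1 and Il6st. Of 44 genes 22 (50%) were expressed, near the 47.2% of all protein-coding genes. Il13ra1, part of the interleukin-4 and interleukin-13 receptors, had 22.7, 23.2 and 23.6 FPKM. The signal chain of the interleukin-6 family, Il6st, had 17.4 ± 0.439, the interferon receptor genes Ifnar1 and Ifngr2 15.0 ± 0.269 and 13.0 ± 0.806, and the interleukin-1 receptor gene Il1r1 14.1 ± 0.548 FPKM (SD, n = 3). Ranges of Ifnar1 and Il1r1 and of Il1r1 and Ifngr2 overlapped. Il3ra, Il5ra, Il7r, Il10ra, Il12rb2, Il20ra, Il21r, Csf2ra and Prlr were at 0.

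In the TNF receptor family 11 of 25 genes (44%) were expressed, near the 47.2% of all protein-coding genes, and 1 stood apart. Tnfrsf9, which encodes the T cell costimulatory receptor 4-1BB, had 171, 207 and 182 FPKM (186 ± 18.4, SD, n = 3). The TNF receptor genes Tnfrsf1b and Tnfrsf1a had 44.4, 47.8 and 44.8 FPKM and 24.0, 24.2 and 23.2 FPKM. Next were the lymphotoxin receptor gene Ltbr (15.0 ± 0.819) and the TWEAK receptor gene Tnfrsf12a (7.80 ± 0.512 FPKM; SD, n = 3). Tnfrsf13b, Tnfrsf17, Tnfrsf19, Ngfr and Edar were at 0.

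Receptors for transforming growth factor beta and bone morphogenetic proteins were expressed in 11 of 14 cases. The coreceptor genes Tgfbr3 (betaglycan; 68.3, 68.7 and 71.0 FPKM) and Eng (endoglin; 13.3, 12.8 and 15.4 FPKM) were the highest. The signalling receptor genes Bmpr1a, Acvr1, Bmpr2, Tgfbr1, Acvr1b and Tgfbr2 had 10.9, 10.2, 8.67, 8.28, 7.82 and 4.83 FPKM, and Amhr2, Acvr2a and Acvr2b had 4.04, 3.60 and 3.26 FPKM. Acvrl1 and Acvr1c were below 0.1 FPKM and Bmpr1b was at 0. Both types of receptor needed for signalling were thus present, with the coreceptors above them.

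Chemokine receptors were nearly silent. Of 22 genes 2 were expressed: Ackr3, an atypical scavenging receptor for CXCL12, with 5.98, 7.05 and 6.36 FPKM, and Cxcr3 with 1.06, 0.922 and 1.05 FPKM. Cxcr2, the receptor of CXCL1, CXCL2 and CXCL3, was at 0 in all 3 libraries, where 3 reads would be 0.0524 FPKM. Ccr2, Ccr3, Ccr6, Ccr8, Cxcr1, Cxcr6, Ackr1 and Ackr4 were at 0 as well. The list summed to 7.66 to 8.70 FPKM, against 923 to 975 FPKM for the 37 chemokine ligands.

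Integrins, Toll-like receptors and developmental receptors were each carried by a few members. Of 26 integrin genes 10 were expressed, with Itgb1 followed by Itga6, Itgb7 (39.7 ± 1.72), Itgb5 (33.6 ± 0.850) and the fibronectin receptor chain gene Itga5 (21.1 ± 0.591 FPKM; SD, n = 3), and Itga8, Itgad and Itgb8 were at 0. Of 12 Toll-like receptor genes, Tlr4, the receptor of bacterial lipopolysaccharide, had 14.1, 12.5 and 14.5 FPKM and Tlr2, a lipoprotein receptor, 1.97, 1.66 and 1.67 FPKM. Tlr3 had 0.715, Tlr5 0.3205, Tlr6 0.229 and Tlr9 0.202 FPKM, Tlr1, Tlr12 and Tlr13 were each seen in replicate 2 only, and Tlr7, Tlr8 and Tlr11 were at 0. Of 22 Notch, Wnt and Hedgehog receptor genes 11 (50%) were expressed, near the 47.2% of all protein-coding genes. Highest were the Wnt coreceptor genes Lrp5 (23.4 ± 1.96) and Lrp6 (12.3 ± 0.208) and Notch2 (19.98 ± 0.239 FPKM, SD, n = 3). The Hedgehog transducer gene Smo (11.9 ± 0.863) and Fzd7 (5.76 ± 0.206 FPKM, SD, n = 3) were next to them, and Fzd3, Fzd6, Fzd8 and Fzd10 were at 0.

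Nuclear receptors were expressed in 23 of 48 cases (47.9%), near the 47.2% of all protein-coding genes, and at low levels. The retinoid and thyroid receptor genes Rxrb, Rarg and Thra had 22.2 ± 1.13, 22.03 ± 1.70 and 20.2 ± 0.661, the oxysterol receptor gene Nr1h2 had 19.96 ± 0.945 and the glucocorticoid receptor gene Nr3c1 18.1 ± 0.165 FPKM (SD, n = 3). The first 4 overlapped pairwise in order, and Nr3c1 lay below them. The progesterone receptor gene Pgr was at 0, as were Ppara, Nr1i3, Rorb, Nr5a2, Nr0b1, Nr0b2, Esrrg and Hnf4g.

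Genes by which immune cells recognise a target were expressed in 18 of 28 cases. Besides B2m, the classical MHC class I heavy chain genes H2-D1 and H2-K1 had 691, 702 and 703 FPKM and 312, 318 and 315 FPKM. Such genes resemble each other closely, so their counts can share reads. The NKG2D ligand gene Ulbp1 had 67.9, 59.5 and 62.8 FPKM, and the galectin gene Lgals9 38.9 ± 0.797 FPKM (SD, n = 3). Cd274, which encodes PD-L1, had 4.84, 4.48 and 4.29 FPKM, and its relative Pdcd1lg2, the costimulator gene Cd80 and the class II gene H2-Eb1 were at 0.

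Ligands and receptors were then set side by side as 61 known pairs, chosen after values were seen. Both genes were expressed in 14 pairs, the ligand alone in 27, the receptor alone in 18 and neither in 2. Of the 10 chemokine pairs chosen, 7 had the ligand only and 1 had both genes. All 5 matrix pairs chosen had both, among them Spp1 at 4565 FPKM with its receptor genes Cd44 at 59.0 and Itgav at 20.8 FPKM. These counts depend on which pairs were picked, so no contrast between families can be drawn from them. Transcript levels in bulk RNA do not show whether a protein is made or a pair signals.

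Ligands without the receptor they were paired with included several of the most abundant. Cxcl1 (472 FPKM) faced Cxcr2 at 0, Ccl2 (227 FPKM) faced Ccr2 at 0 and Csf1 (45.0 FPKM) faced Csf1r at 0. Vegfa (183 FPKM) faced Kdr at 0.177 and Nrp1 at 0.0486 FPKM, Areg (64.1 FPKM) faced Egfr at 0.118 FPKM, and Kitl (30.1 FPKM) faced Kit at 0. Mif (357 FPKM) faced Cd74 at 0.421 FPKM and Lif (14.04 FPKM) faced Lifr at 0.0015 FPKM. For these ligands the receptor gene named lay below 1 FPKM in every library.

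Receptors without the ligand they were paired with included Axl (62.7 FPKM, Gas6 at 0) and Fgfr1 (65.4 FPKM, Fgf2 at 0.123 FPKM). Others were Igf2r (67.8 FPKM, Igf2 at 0), Tnfrsf1a (23.8 FPKM, Tnf at 0) and Il1r1 (14.1 FPKM, Il1a at 0.101 FPKM). Any further ligands of these receptors were not paired with them. Pairs with both genes expressed included Adm (186 FPKM) with Calcrl (21.7 FPKM), Tnfsf9 (9.27 FPKM) with Tnfrsf9 (186 FPKM), Pdgfa (6.95 FPKM) with Pdgfra (16.2 FPKM) and Tgfb1 (13.3 FPKM) with Tgfbr2 (4.83 FPKM). In the Tnfsf9 and Pdgfa pairs the receptor was the more abundant gene, and in the Adm and Tgfb1 pairs the ligand was.

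**Figure D4:**
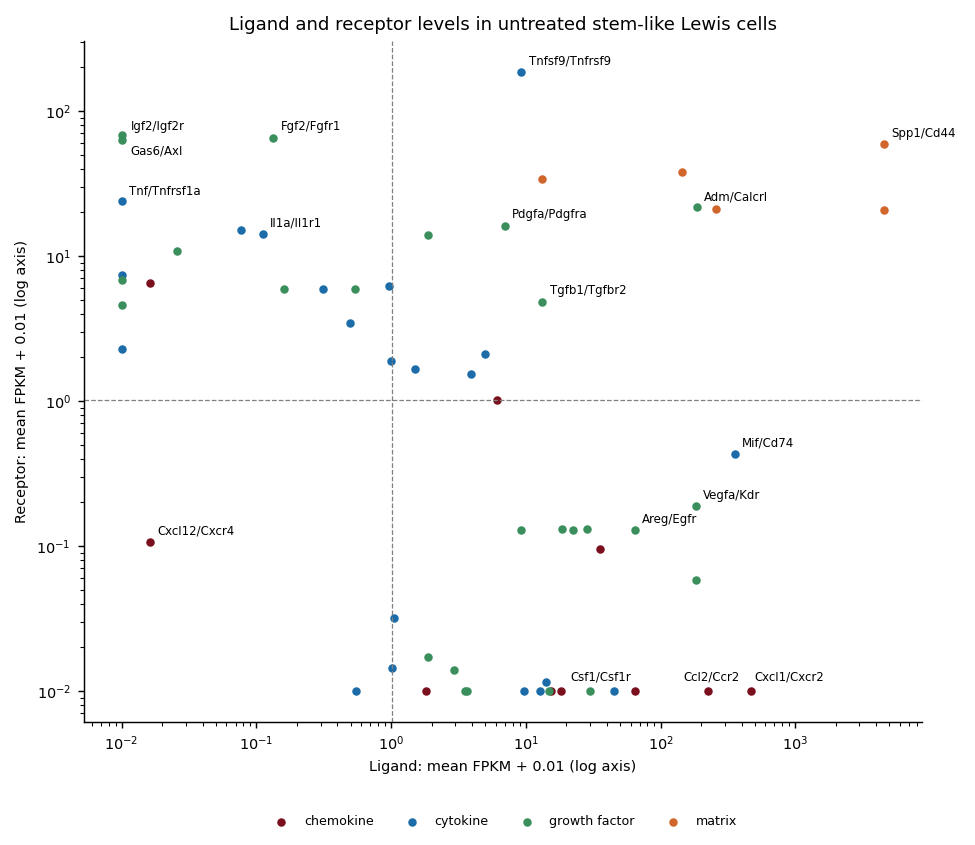
Mean FPKM + 0.01 over the 3 Control libraries of the ligand (horizontal, log axis) and of its receptor (vertical, log axis) for 61 pairs, coloured by family, with dashed lines at 1 FPKM. The 27 pairs at the lower right have an expressed ligand only, such as Cxcl1 with Cxcr2, and the 18 at the upper left an expressed receptor only, such as Gas6 with Axl.

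Silent loci formed blocks. The tumour suppressor genes Cdkn2a (chr4:89274471-89294653, minus strand, mm10) and Cdkn2b (chr4:89306299-89311039) were at 0 in all 3 libraries, where 3 reads would be 0.136 and 0.115 FPKM. Mtap, a methionine salvage gene that ends at position 89181081 on the same chromosome, had 53.1, 52.4 and 53.1 FPKM (52.9 ± 0.398, SD, n = 3). On the far side, the next protein-coding gene above 0 was Caap1, an apoptosis inhibitor gene, with 5.75, 5.08 and 5.76 FPKM (5.53 ± 0.389, SD, n = 3), starting 5.32 Mb after the end of Mtap.

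All 8 protein-coding genes between Mtap and Caap1, which are Cdkn2a, Cdkn2b, Dmrta1, Zfp352, Elavl2, Izumo3, Gm12666 and Tusc1, were at 0. Counting every gene type, 45 of the 52 genes there were at 0, and 1, Gm12655 next to Caap1, had a mean of at least 1 FPKM (1.11, 0.720 and 1.19). The others above 0 were 2 long noncoding RNAs, among them Gm12606 at 0.167 FPKM between Mtap and Cdkn2a, and 4 processed pseudogenes, whose reads can come from parent genes elsewhere. In these values a deleted locus and an intact silent one cannot be told apart.

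Chromosome Y was silent. Of its 183 protein-coding genes 182 were at 0, and the remaining one, Gm47283, had a mean of 0.468 FPKM. Eif2s3y, Uty, Kdm5d, Ddx3y, Sry, Zfy1, Zfy2 and Usp9y were among those at 0. Their X-linked partner genes were expressed, with Eif2s3x at 49.5, 49.3 and 47.8 FPKM, Ddx3x at 44.9, 42.0 and 44.4 FPKM, and Kdm5c and Kdm6a at 21.8 and 4.15 FPKM. Xist, the RNA that coats an inactive X chromosome, had 0.0161, 0.0208 and 0.0260 FPKM and its antisense partner Tsix was at 0. Chromosome X had 33.4% of its protein-coding genes expressed, below the 36.4% (chromosome 14) to 57.1% (chromosome 12) of the 19 autosomes.

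Homeobox genes gave a positional pattern. In Hox cluster D 3 of 9 genes were expressed, in cluster C 1 of 9 and in cluster B none of 10, and cluster A held expressed genes too. Hoxd8 had 13.1, 11.5 and 12.1 FPKM, Hoxd9 8.14, 7.32 and 8.80 FPKM and Hoxd10 6.38, 7.70 and 7.27 FPKM. Their neighbours on both sides were silent or nearly so, with Hoxd3 at 0.0942, Hoxd4 at 0.0451, Hoxd11 at 0.0038 and Hoxd12 at 0.0490 FPKM and with Hoxd1 and Hoxd13 at 0.

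In cluster A the highest genes were Hoxa9 at 6.45 ± 0.179, Hoxa10 at 5.98 ± 0.336 and Hoxa7 at 4.15 ± 0.172 FPKM (SD, n = 3). Hoxa6, Hoxa5 and Hoxa13 had 1.30, 1.30 and 1.06 FPKM, Hoxa3, Hoxa2 and Hoxa4 had 0.669, 0.534 and 0.179 FPKM, and Hoxa11, between expressed genes, was at 0. In cluster C, Hoxc6 had 1.504, 1.79 and 2.17 FPKM, Hoxc4 and Hoxc5 had 0.697 and 0.218 FPKM, Hoxc10 and Hoxc9 had 0.0271 and 0.0073 FPKM, and Hoxc8, Hoxc11, Hoxc12 and Hoxc13 were at 0. Cluster B summed to 0.0316 to 0.144 FPKM, with Hoxb6, Hoxb4, Hoxb5 and Hoxb3 between 0.0340 and 0.0120 FPKM and Hoxb1, Hoxb2, Hoxb7, Hoxb8, Hoxb9 and Hoxb13 at 0. Hoxa10, Hoxd10 and their neighbours of group 9 were therefore the most posterior genes above 5 FPKM.

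**Figure D5:**
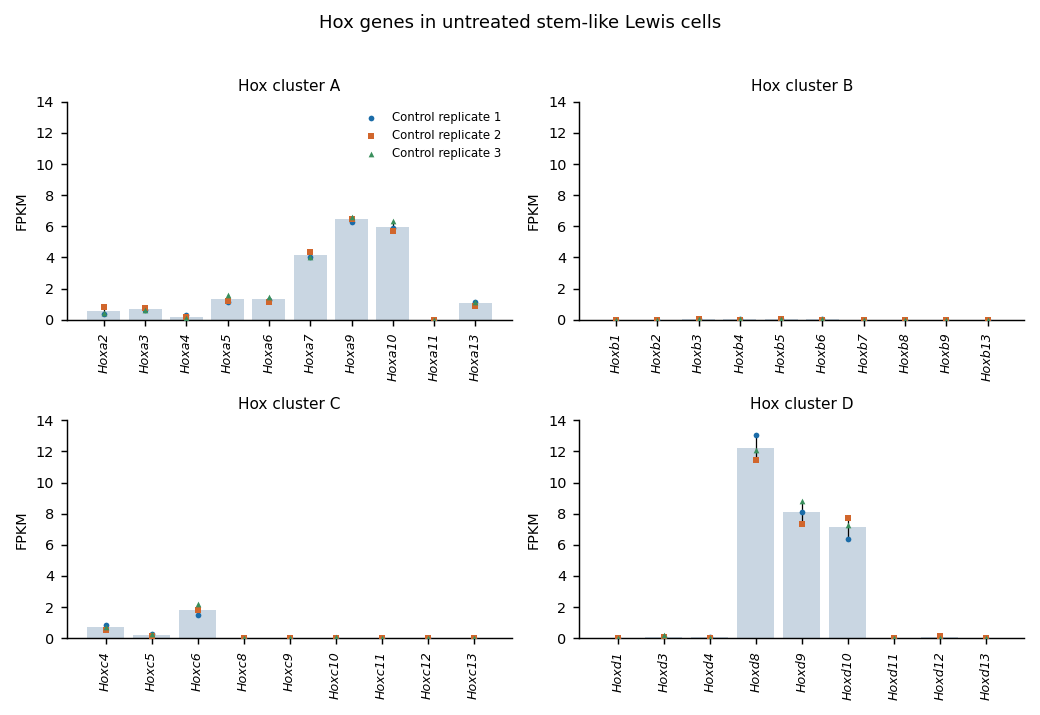
FPKM of the Hox genes shown, in cluster order, in the 3 Control libraries (symbols), with bars at the mean and black lines for 1 SD. Hoxd8 to Hoxd10 and Hoxa7 to Hoxa10 stand above the rest, and cluster B is at or near 0.

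Imprinted genes, which are normally active from 1 parental copy, were expressed in 8 of 22 cases. Igf2r, the receptor that clears IGF2, had 67.8, 67.8 and 67.9 FPKM, and its antisense transcript Airn had 5.57, 5.29 and 5.69 FPKM. Since the use of strand in counting is not given in the sources used here, reads of this pair cannot be told apart. Peg10, a retrotransposon-derived gene, had 43.8 ± 1.19, Peg3, a zinc finger gene, 8.75 ± 0.349 and Ndn, a neuronal growth suppressor gene, 4.93 ± 0.308 FPKM (SD, n = 3). Igf2, Dlk1, Plagl1, Magel2, Grb10, Nnat and Slc22a3 were at 0, and H19 had 0, 0 and 0.190 FPKM.

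Several gene families of specialised tissues were silent or nearly so; they were picked by symbol after values were seen. Of 1135 olfactory receptor genes 1093 (96.3%) were at 0 and none was expressed, and of 322 vomeronasal receptor genes 289 were at 0. All 21 major urinary protein genes and all 15 trace amine receptor genes were at 0, as were 56 of 57 keratin-associated protein genes. Of 53 keratin genes only Krt8 and Krt18 were expressed, and of 33 claudin genes 3 were, namely Cldn12 at 10.9, Cldn9 at 2.62 and Cldn34c1 at 1.15 FPKM. The drug- and lipid-metabolising cytochrome P450 families 2, 3 and 4 were less uniform, with 7 of 78 genes expressed, up to 12.3 FPKM for Cyp4f13, and 54 (69.2%) at 0. In all, 2257 protein-coding genes lay in 98 unbroken runs of at least 10 neighbours at 0, the longest outside chromosome Y being 121 genes on chromosome 2, of which 117 were olfactory receptor genes.

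The Rhox cluster on chromosome X, homeobox genes of the reproductive tract and placenta, held both highly expressed and silent members. Rhox5 had 475, 468 and 476 FPKM (473 ± 4.07, SD, n = 3), the level of Cxcl1. Rhox2d, Rhox2h and Rhox2g had 196, 130.5 and 105 FPKM, but these copies resemble each other closely and can share reads, and Rhox3g had 2.54 FPKM. The remaining 29 of 34 were not expressed, 27 of them at 0.

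Levels varied little between the 3 libraries. Among the 4995 genes with a mean of at least 10 FPKM, the coefficient of variation had a median of 3.11% and quartiles of 1.87% and 4.85%. The lowest were Fam168b (43.3, 43.4 and 43.4 FPKM), Rala, Zdhhc8, Ubac1 and Wdr46, between 0.0248% and 0.0772%. Only 37 genes were above 20%, of which 26 were pseudogenes and 3 were protein-coding, namely Gm10031, Ppia and Sarnp.

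The highest 5 were the pseudogenes Rps25-ps1, Gm10123, Gm10705 and Gm44126 and the small nucleolar RNA Gm23301. Gm10123 had 43.8, 326 and 148 FPKM and Rps25-ps1 7.15, 4.93 and 22.9 FPKM. Ppia, the cyclophilin A gene, which has many near-identical copies, had 256, 159 and 223 FPKM. Copy number and shared reads were not measured here, so their part in this variation was not tested. The coefficient of variation of the 8 marker genes ranged from 1.63% for Col3a1 to 10.7% for Nos2.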

How the data were processed

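Poly(A) RNA libraries from a stranded mRNA kit were sequenced, and only the 3 Control libraries of the 6 were used here. The authors deposited FPKM values per gene; alignment with HISAT2 to mm10 is given in the submitters' processing notes. The gene counter, its annotation, the use of strand and the read total behind the FPKM are not given in sources used here. Gene types, positions and exon lengths came from GENCODE M21, which held 54409 of the 54446 identifiers. FPKM times exon length and a library total gave whole reads, within 0.1 read, for 98.8% to 98.9% of low values checked, which fixed the totals. On 4 simulated libraries this search missed the true total by at most 0.000132%. Reads summed over genes came to 102.6% of these totals, so which reads they count is unknown.

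Means and SDs are over 3 libraries, no test between groups was made, and a gene is called expressed at a mean of 1 FPKM. Levels are called different in order only where ranges do not overlap. The gene lists, like the subject of the report, were chosen with earlier results of these data known. Named genes are the 25 most abundant, 8 markers, the top 5 and the silent members of each list, every member of lists of at most 14 genes, and the 5 highest and 5 lowest in variation. Some list members are not reported here. All other genes named, the ligand and receptor pairs and the symbol families were chosen after values were seen. Promoters came from RefSeq (GRCm38.p6). Counting error alone sets the 3-read limits. Alternatives were other thresholds, TPM scaling, protein-coding genes only, and leaving out each library. Python 3.11.15, numpy 2.4.6, pandas 2.3.3, scipy 1.17.1 and matplotlib 3.10.9 were used.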

Additional observations from a re-analysis of the deposited data

How the results depend on the processing

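Without each library in turn, expressed genes numbered 11957 to 11995, silent genes 32272 to 32554 and genes that hold 50% of the summed FPKM 385 to 391. A threshold of 5 FPKM left 7681 expressed genes. Counting protein-coding genes only left 6838 silent genes. By share of reads in place of FPKM, 876 genes held 50%. Only large relative changes in the number of expressed members of a list were counted as moves. By this rule the number moved in 18 of 37 lists at 5 FPKM, in 6 after TPM scaling and in 3 at 0.5 FPKM. Smaller changes were more common. At 0.5 FPKM, for example, growth factors went from 29 to 33 and chemokines from 13 to 15, which were not counted. Muscle markers had 1 expressed gene without replicate 3 (2 with it) and chemokine receptors 1 without replicate 1 or 3. Pairs with an expressed ligand only numbered 28 at 0.5 FPKM and 22 at 5 FPKM, alternatives chosen after seeing the data, against 27. No paired analysis was possible because no groups were compared and the result comes from no test. By depth alone, silent calls are limited to genes under about 3 reads, which is 0.145 to 0.16 FPKM in a gene of 1 kb. How reads shared between near-identical genes were counted is not given in the sources used here. For genes with such copies, also in families and on chromosome Y, a value of 0 can therefore hide reads, which was not tested.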

Other observations

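Nnt, the mitochondrial transhydrogenase gene that is disrupted in the C57BL/6J strain, had 0.117, 0.068 and 0.118 FPKM. The long noncoding RNA genes Malat1 and Neat1, which stay in the nucleus, had 207 ± 19.04 and 62.1 ± 1.097 FPKM (SD, n = 3), and Malat1 varied more, with a coefficient of variation of 9.19% against 1.77%. Of 39 proteasome subunit genes 37 were expressed, up to 127 FPKM. Ero1l, an oxidase of the endoplasmic reticulum, had 545, 609.9 and 549.8 FPKM and was highest in replicate 2. These genes were chosen after their values were seen.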
